A study of Mus musculus with 17 samples.

Results

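The 45 genes described here encode translation factors, the proteins that start, extend and end protein synthesis on the cytosolic ribosome. They were taken by symbol from a fixed list, and all 45 were found in both tables of bulk RNA-seq of isolated mouse islets, among 78239 gene identifiers in the first table and 73212 in the second. All 45 passed the filter on low counts, so none is left out of the counts given here. The first table held 12 islet samples of male C57BL6/N mice and compared wildtype mice with littermates homozygous for *Pax4* R192H, a knock-in of the mouse equivalent of a human variant of *Pax4*, a transcription factor of β cell development. Mice of both genotypes were on standard chow diet (SCD) at 12 weeks of age or had been on high-fat diet (HFD) for 4 weeks at 16 weeks of age, with 3 samples in each of the 4 groups, so that diet and age changed together. The second table held 5 samples from male mice at 20 weeks of age after 8 weeks on HFD. In 3 of them *Pax4* was deleted by tamoxifen-induced Cre under the *Pdx1* promoter (*Pax4* βiKO), which is active in β cells but also in some other pancreatic cells. The 2 control samples were from mice that carried the same floxed *Pax4* and received tamoxifen but had no Cre, so Cre and the loss of *Pax4* cannot be told apart. Samples are biological replicates by their names, but whether each holds the islets of 1 animal or of several is not given in the sources used here. Values given below for the mice of a group are those of its samples, 1 value per sample.

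Translation of most mRNAs starts when eIF2 brings the initiator tRNA to the small ribosomal subunit together with eIF1, eIF1A, eIF3 and eIF5. The eIF4 factors bind the cap and unwind the 5′ end, and eIF5B joins the large subunit. eIF2B recharges eIF2 with GTP and is the step that the integrated stress response blocks through phosphorylated eIF2α. In elongation eEF1A delivers aminoacyl-tRNA, the eEF1B complex recharges eEF1A, and eEF2 moves the ribosome along. β cells make proinsulin at a high rate and are sensitive to faults in this machinery, the eIF2 and eIF2B step in particular.

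Many mRNAs of the elongation factors belong to the 5′ TOP class, which begins with a cytosine and a run of pyrimidines and whose translation depends on mTORC1. RefSeq promoter sequences on GRCm38.p6 were available for 34 of the 45 genes and for 7 of the 12 that were listed as 5′ TOP genes from textbook knowledge. The sequences of these 7, with 28 bases around the longest pyrimidine run on the coding strand within 50 bases of the annotated start, are shown to set apart the genes with a long run from those without one. Capitals mark the run of C and T.

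*Eef1a1* (chr9:78481711-78481738, - strand): ctggctccgCCCTCTTCCCgagggtggg
*Eef1a2* (chr2:181157015-181157042, - strand): tttgcctgTTTTTCTCTCCTggtctgcg
*Eef2* (chr10:81176635-81176662, + strand): acgtcagcggTCTCTTCCgccgcagccg
*Eif3f* (chr7:108934405-108934432, + strand): tctaggCTCTCTCTCTTTCTCggcaaga
*Eef1b2* (chr1:63176852-63176879, + strand): gcgtccgagcgCTTTCgttcaactccgg
*Eif4b* (chr15:102073725-102073752, + strand): tcagactccaCCCCTTCggccacatgtc
*Naca* (chr10:128035329-128035356, + strand): ccgcaactcgTTCTCTTaaagaggaaac

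A run of at least 8 C or T on the coding strand was found in 4 of these 7 windows, those of *Eef1a1*, *Eef1a2*, *Eef2* and *Eif3f*. These runs began at positions -5, -19, 15 and -4 from the annotated start, so none began at the start itself. That of *Eef1a2*, 12 bases long, lay wholly before it. Whether any of them is a 5′ TOP motif was not tested. Such a run was present in 13 of the 34 members (38.2%), against 35.7% of all 27025 promoters and 47 of 58 promoters of ribosomal protein genes (81.0%). On the other strand the shares were 29.4% of the members and 37.2% of all promoters. The members as a whole were thus near the background of this sequence feature, and the windows of *Eef1b2*, *Eif4b* and *Naca* held no run of that length.

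Total expected counts, the reads RSEM assigned to genes, ranged from 24268157 to 42679645 per library in the first table and from 28618835 to 31887537 in the second. Of all genes of the first table, 2 held between 36.2% and 53.3% of all counts of a library. TMM, which scales libraries to the bulk of the genes, gave factors from 0.692 to 1.298. *Pax4* had 0 counts in each of the 17 libraries, so the targeted gene checks no label, whereas *Esr1*, whose ligand-binding domain is part of the CreERT2 fusion, stood at 265 to 298 CPM (counts scaled to a common TMM library size) in *Pax4* βiKO and at 0.530 and 0.706 CPM in the controls. Islet endocrine markers were abundant, their 16 genes summing to between 56421 and 163818 CPM. The 25 acinar markers, genes of the digestive enzyme cells around the islets, summed to 43473 to 114318 CPM in *Pax4* R192H mice on HFD and to 15301 to 30186 CPM in the other 3 groups of that table, with none of the 25 at 0 in any library. Over all genes, wildtype sample 2 on SCD, *Pax4* R192H sample 3 on SCD and wildtype sample 1 on HFD deviated from their group means together, with r from 0.32 to 0.40 across genes, which are not independent. Without these 3 samples, an alternative chosen after the data were seen, 1 member (*Eef1b2*) was called for genotype on HFD and 16 of the 18 members for diet in *Pax4* R192H mice. In bulk samples, fewer cells of a type and less RNA per cell cannot be told apart.

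In the first table the choice of scaling set the sign of most of the members' differences, whereas in the second the members' median was 0.14 on the TMM scale and 0.15 on total counts, although 10 members had an unadjusted p below 0.05 and were higher on the former and 1 on the latter. The share of all counts that fell on the 45 genes was 0.558% to 0.633% in *Pax4* R192H mice on HFD and 0.610% to 0.784% in *Pax4* R192H mice on SCD, and without the 2 largest genes of each library it was 1.14% to 1.35% against 1.14% to 1.26%. On the TMM scale the same genes summed to 7697 to 9090 CPM on HFD and to 5654 to 6078 CPM on SCD. The plot of medians by scaling shows both readings. The difference between the members' median and the median of all genes was almost the same under either scaling, so values below are on the TMM scale and are given beside the median of all tested genes.

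**Figure D1:**
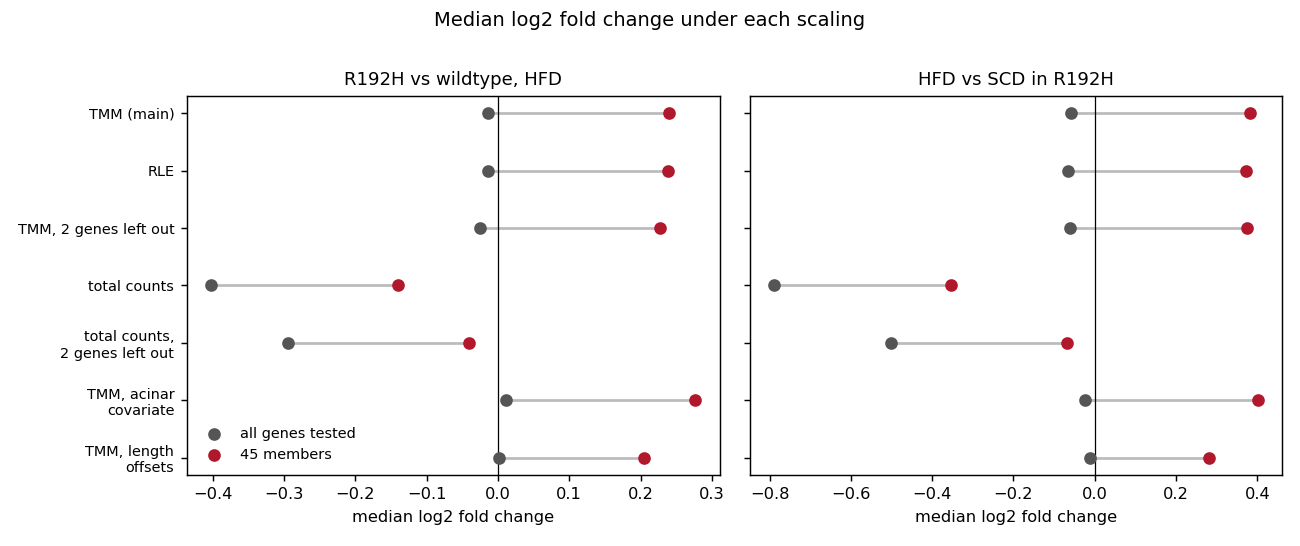
Median log2 fold change (horizontal axis) of the 45 members (red) and of all genes tested (grey) under 7 scalings or covariates, for *Pax4* R192H against wildtype on HFD (left) and for HFD against SCD in *Pax4* R192H (right). Scaling to total counts moved the members' median below 0, to -0.14 on the left and -0.35 on the right. It lowered that of all genes from -0.01 to -0.40 and from -0.06 to -0.79. The members stayed above all genes by 0.20 to 0.27 on the left and by 0.29 to 0.44 on the right.

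Levels of the members spanned a wide range. On a per-kilobase scale, which divides CPM by the median length of a gene's coding transcripts, *Eef1a1*, the main eEF1A, was the highest member in each of the 6 groups, at 1537 ± 196 CPM per kb (SD, n = 3) in wildtype mice on HFD. *Eef2* with 246 ± 14.1 and *Eif4a2*, a helicase of the cap-binding complex, with 228 ± 35.2 CPM per kb followed in that group and did not differ beyond their spread. Next came *Eef1g* with 119.9 ± 15.3 and *Eif4a1*, the other helicase, with 100.3 ± 15.3 CPM per kb, which also lay within their spread of each other. At the lower end of the same group were *Eef2k*, the kinase that inhibits eEF2, *Eef1a2*, the eEF1A of muscle and neurons, and *Eif5b*, with 2.57 ± 0.381, 2.00 ± 0.329 and 1.78 ± 0.740 CPM per kb. *Eef1a1* alone made up between 36.2% and 45.9% of the members' summed CPM. It has many processed pseudogenes, as have *Eif4a1*, *Naca* and *Btf3*, and reads that such copies share could have been split between them, which makes these 4 levels uncertain.

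Under an SCD, no member was called between *Pax4* R192H and wildtype mice. A gene was called when its log2 fold change exceeded 0.5 in size with an adjusted p under 0.05 by edgeR. None of the 45 members was called, and neither was any of the 19137 genes tested (0%). DESeq2 also called 0 members, against 0.0579% of 39752 genes, which it tested without that filter. Its own default filter can leave genes of low mean count without an adjusted p. Such genes cannot be called but stay among the genes counted, so its shares here and below may be too low. For edgeR at an unadjusted p below 0.05 there was 1 member, *Eef1d*, which was lower, as were 2.19% of all genes. The median log2 fold change of the members was -0.07 against 0.00 for all genes, with 13 above 0 and 32 below 0. In 5 members, *Eif1a*, *Eif2s2*, *Eef1d*, *Gspt1* and *Btf3*, all *Pax4* R192H mice lay below all wildtype mice, where 4.22% of all genes did so. The 9 immune markers tested were all below 0 in this comparison, with a median of -0.61, 6 at an unadjusted p below 0.05 and 0 called, and the 10 listed summed to 142 to 223 CPM in wildtype mice on SCD and to 93.2 to 143 CPM in the other 3 groups of the table. Their part in the members' differences was not tested.

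On HFD the members were mostly higher in *Pax4* R192H than in wildtype mice, but few passed the test. Called higher were 2 of 45, *Eef1b2* and *Eif2b1*, and 0 were called lower, where 1.46% of all genes were called higher and 0.820% lower. The members' median log2 fold change was 0.24 against -0.01 for all genes, 38 of 45 were above 0, and 14 had an unadjusted p below 0.05, all of them higher, where 8.91% of all genes were. On leaving out 1 sample the 14 became 9, without HFD sample 2 of *Pax4* R192H, to 17, without HFD sample 2 of wildtype. Without overlap between the groups and higher in *Pax4* R192H were 19 members, against 13.0% of all genes. Leaving out any 1 of the 6 samples left 0 or 1 of these calls, while the calls over all genes went from 437 to between 93 and 498. A fit with the mean log2 CPM of the acinar markers as a covariate called 0 members and 0% of all genes, with a members' median of 0.28. DESeq2 called 3 higher, *Eef1g* being added, where it called 1.55% of its 39752 genes higher. Scaling to total counts also called 0, where 4.73% of all genes were called, with 12 of 45 members above 0.

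Diet gave most of the calls among the members, in *Pax4* R192H mice. In *Pax4* R192H mice 18 of 45 members were called higher on HFD than on SCD and 0 lower on the TMM scale, where 9.75% of all genes were called higher and 5.91% lower. On total counts 0 were called higher and 16 lower, none of them among the 18, where 1.77% of all genes were called higher and 44.9% lower, so the share of members called lower was below that of all genes. Leaving out 1 sample gave 11 to 16 members called higher, with 11 without HFD sample 2 of *Pax4* R192H, and 1706 to 2248 calls over all genes in place of 2996. With no limit on fold change 20 were called higher, *Eif3l* and *Eif4b* being added, where 10.5% of all genes were. Without overlap and higher on HFD were 27 members, against 21.3% of all genes. Lower without overlap was 1, *Eif5*, and the share of all genes for that direction is not given here. The TMM median was 0.38 for the members against -0.06 for all genes. In wildtype mice 0 members were called by edgeR and 0 by DESeq2, where edgeR called 0.371% of its 19137 genes and DESeq2 1.37% of its 39752, with a median of 0.10 against 0.01, and 2 members higher and 1 lower at an unadjusted p below 0.05, where 6.86% and 8.37% of all genes were. On total counts the medians were -0.18 for the members and -0.26 for all genes, and 0 members were higher and 11 lower at an unadjusted p below 0.05, against 0.993% and 17.7% of all genes. In the interaction of genotype and diet 0 members were called by edgeR, where 0.131% of all genes were, 12 were positive with an unadjusted p below 0.05, where 6.84% of all genes were, and DESeq2 called 2, *Eef1b2* and *Eef1d*, where it called 0.782% of its 39752 genes. On total counts 11 members were above 0 in the interaction, against 39 on the TMM scale, with a median of -0.13 where that of all genes was -0.47, and 0 were higher and 1 lower at an unadjusted p below 0.05, against 1.79% and 18.4% of all genes. On leaving out 1 sample the 12 became 7, without HFD sample 2 of *Pax4* R192H, to 18, without SCD sample 2 of wildtype, and the interaction calls over all genes went from 25 to between 0 and 101. The 9 immune markers tested were all above 0 in the interaction, with a median of 0.66 and 0 called, and 8 of 9 were below 0 for diet in wildtype mice, with a median of -0.85 and 2 called lower. Their part in the members' values was not tested. The HFD genotype comparison and the diet comparison of *Pax4* R192H mice share the 3 *Pax4* R192H samples on HFD, so they are not independent of each other. Each genotype comparison shares a group with each diet comparison, and the interaction shares samples with all of them. Genotype on SCD and genotype on HFD share no sample, nor do the diet comparisons of the genotypes, but all rest on a common estimate of spread.

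**Figure D2:**
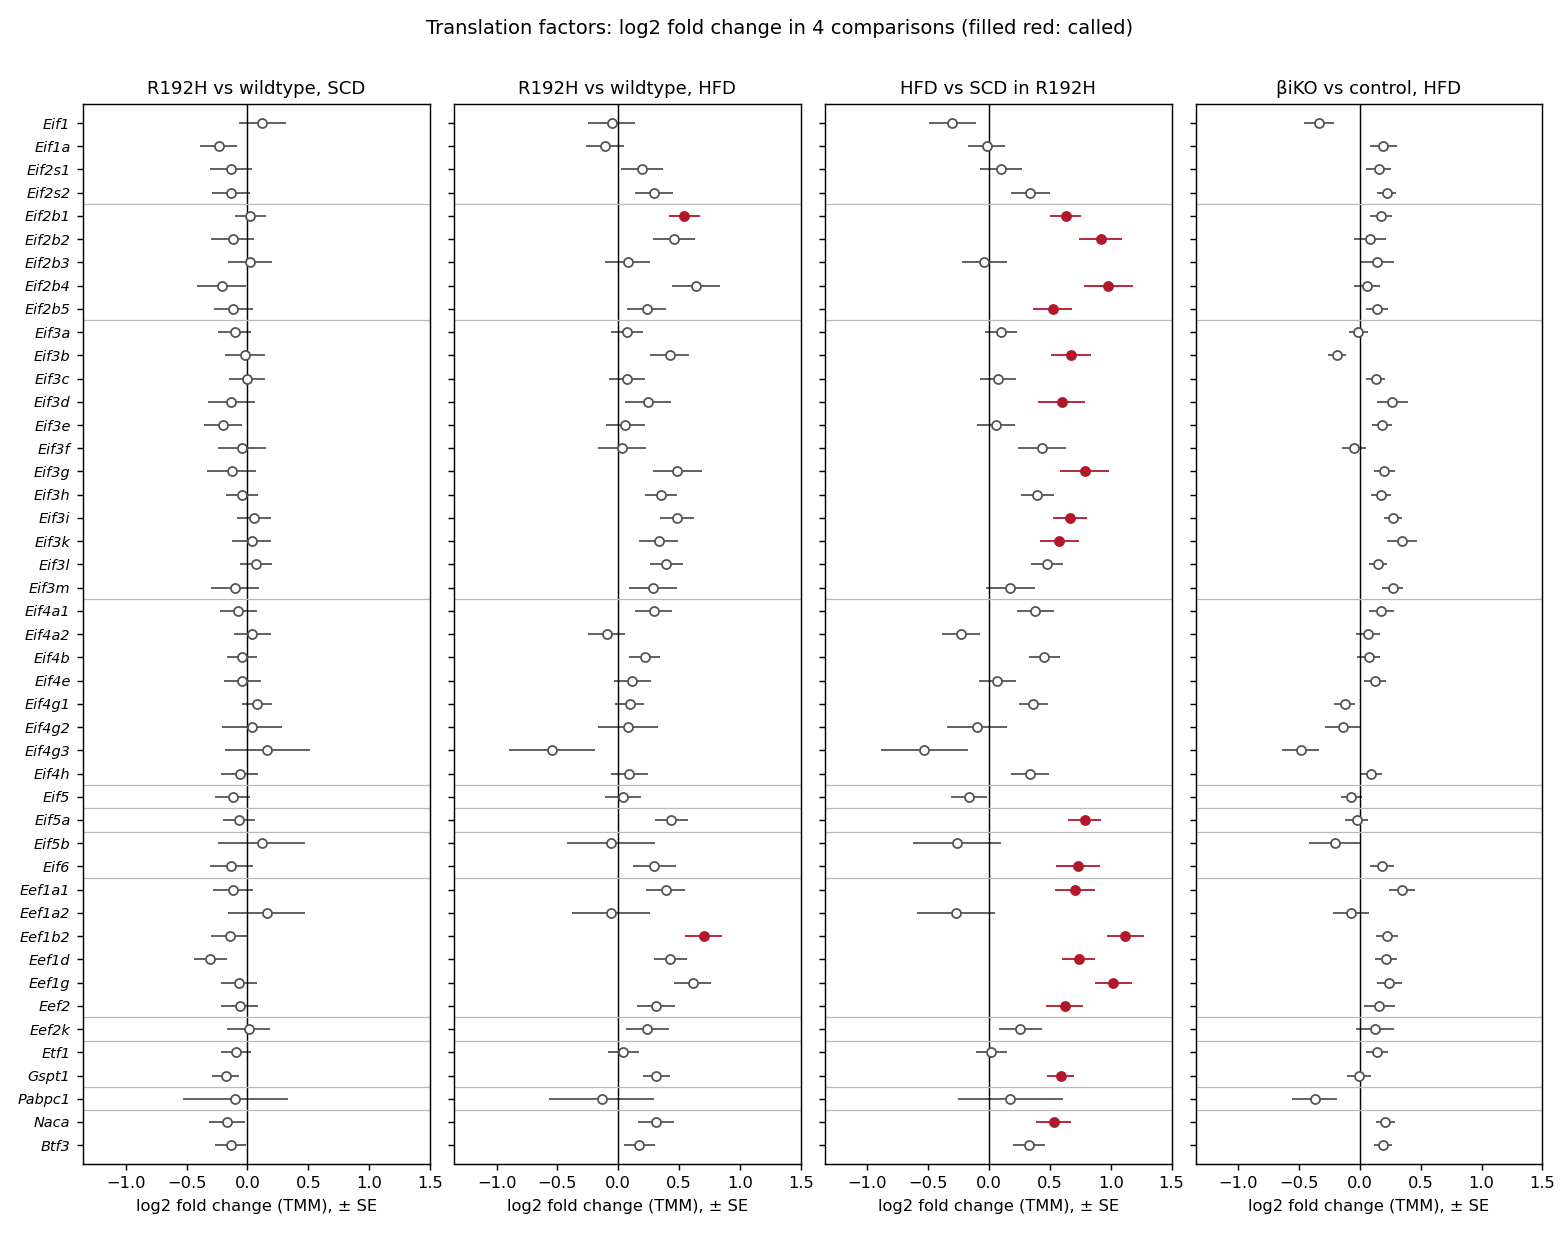
Log2 fold change on the TMM scale (horizontal axis, with its SE as a bar) of each of the 45 members (rows, grouped by role) in 4 comparisons. Filled red points were called by edgeR, which holds for 0, 2, 18 and 0 members from left to right. On total counts the 2 calls of the second panel and all 18 of the third were lost, and 16 other members were called lower in the third.

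Of the 6 elongation factors, 5 were called higher on HFD than on SCD in *Pax4* R192H mice on the TMM scale, *Eef1a2* being the exception, whereas on total counts 2 of the 6, *Eef1b2* and *Eef1g*, were above 0 and *Eef1a2* was called lower. Of all genes, 9.75% were called higher on the TMM scale and 44.9% lower on total counts. *Eef1b2* encodes eEF1Bα, a nucleotide exchange factor of eEF1A. *Eef1b2* stood at 87.1, 81.1 and 91.4 CPM in the wildtype and 85.4, 76.5 and 72.7 CPM in the *Pax4* R192H mice on SCD, and at 82.7, 123 and 107 and 167, 194 and 148 CPM in the same order on HFD. All *Pax4* R192H mice on HFD lay above every other sample of the table. The log2 fold change was 0.70 (SE 0.15, adjusted p = 0.0317) against wildtype mice on HFD and 1.12 (SE 0.15, adjusted p = 0.000589) against *Pax4* R192H mice on SCD.

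*Eef1g*, the γ subunit that anchors the eEF1B complex, showed the same order of groups. In CPM, *Eef1g* was 200.2, 156 and 173 in wildtype mice on SCD, 184, 178 and 143 in *Pax4* R192H mice on SCD, 191, 244 and 235 in wildtype mice on HFD and 313, 384 and 325 in *Pax4* R192H mice on HFD. The *Pax4* R192H mice on HFD were again above all others. Its log2 fold change was 1.02 (SE 0.15, adjusted p = 0.000934) for diet in *Pax4* R192H mice and 0.61 (SE 0.15, adjusted p = 0.0538) for genotype on HFD. The latter was not called by edgeR, whereas DESeq2 called it with an adjusted p of 0.00432.

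*Eef1d*, the second exchange factor of eEF1B, was the one member in which the genotypes were separated in opposite directions on the 2 diets with an unadjusted p below 0.05 on each. On SCD, *Eef1d* measured 48.0, 38.4 and 38.5 CPM in wildtype and 35.0, 36.2 and 29.9 CPM in *Pax4* R192H mice, and on HFD 37.0, 42.4 and 45.8 CPM and 54.6, 61.9 and 51.8 CPM. On SCD *Pax4* R192H mice lay below wildtype mice and on HFD above them. The log2 fold changes of genotype were -0.31 (SE 0.13, adjusted p = 1) and 0.43 (SE 0.13, adjusted p = 0.118), and the interaction was 0.73 (SE 0.19, adjusted p = 0.156). Diet in *Pax4* R192H mice gave 0.74 (SE 0.13, adjusted p = 0.00309).

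*Eef1a1* carries most of the elongation factor mRNA. Wildtype and *Pax4* R192H mice had 2736, 2142 and 2346 CPM and 2322, 2286 and 2046 CPM of *Eef1a1* on SCD and 2361, 3028 and 2886 CPM and 3475, 4099 and 3256 CPM on HFD. The *Pax4* R192H mice on HFD lay above all others. Diet in *Pax4* R192H mice gave a log2 fold change of 0.70 (SE 0.16, adjusted p = 0.0109) and genotype on HFD one of 0.39 (SE 0.16, adjusted p = 0.254). On total counts the diet value was -0.04.

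*Eef1a2* behaved otherwise. The level of *Eef1a2* was 2.09, 5.26 and 5.60 CPM in wildtype and 4.91, 3.90 and 5.73 CPM in *Pax4* R192H mice on SCD, and 4.91, 3.55 and 4.06 CPM in wildtype and 3.26, 3.78 and 4.97 CPM in *Pax4* R192H mice on HFD. The groups overlapped, and 1 wildtype sample on SCD stood at less than the lowest of the other 11. Its log2 fold change was -0.27 (SE 0.32, adjusted p = 0.591) for diet in *Pax4* R192H mice and -0.06 (SE 0.32, adjusted p = 0.957) for genotype on HFD. Counts of *Eef1a1* exceeded those of *Eef1a2* by 357 to 1309.7-fold across the 17 libraries.

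*Eef2*, the translocase, and its kinase were read side by side. *Eef2* stood at 701, 545 and 677 CPM in the wildtype and 627, 679 and 532 CPM in the *Pax4* R192H mice on SCD, and at 714, 767 and 800.1 and 971, 1047 and 808 CPM in the same order on HFD. Mice on HFD of either genotype lay above all mice on SCD. The log2 fold change of *Eef2* was 0.62 (SE 0.15, adjusted p = 0.0149) for diet in *Pax4* R192H mice and 0.31 (SE 0.15, adjusted p = 0.349) for genotype on HFD. Its diet call was lost in 2 of 6 fits that left out 1 sample. In CPM, *Eef2k* was 6.97, 8.05 and 8.04 in wildtype mice on SCD, 8.69, 7.71 and 6.79 in *Pax4* R192H mice on SCD, 7.92, 6.62 and 8.93 in wildtype mice on HFD and 11.3, 8.10 and 8.36 in *Pax4* R192H mice on HFD. The groups of *Eef2k* overlapped, and its values were 0.26 (SE 0.18, adjusted p = 0.341) and 0.24 (SE 0.18, adjusted p = 0.562) in the same comparisons.

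**Figure D3:**
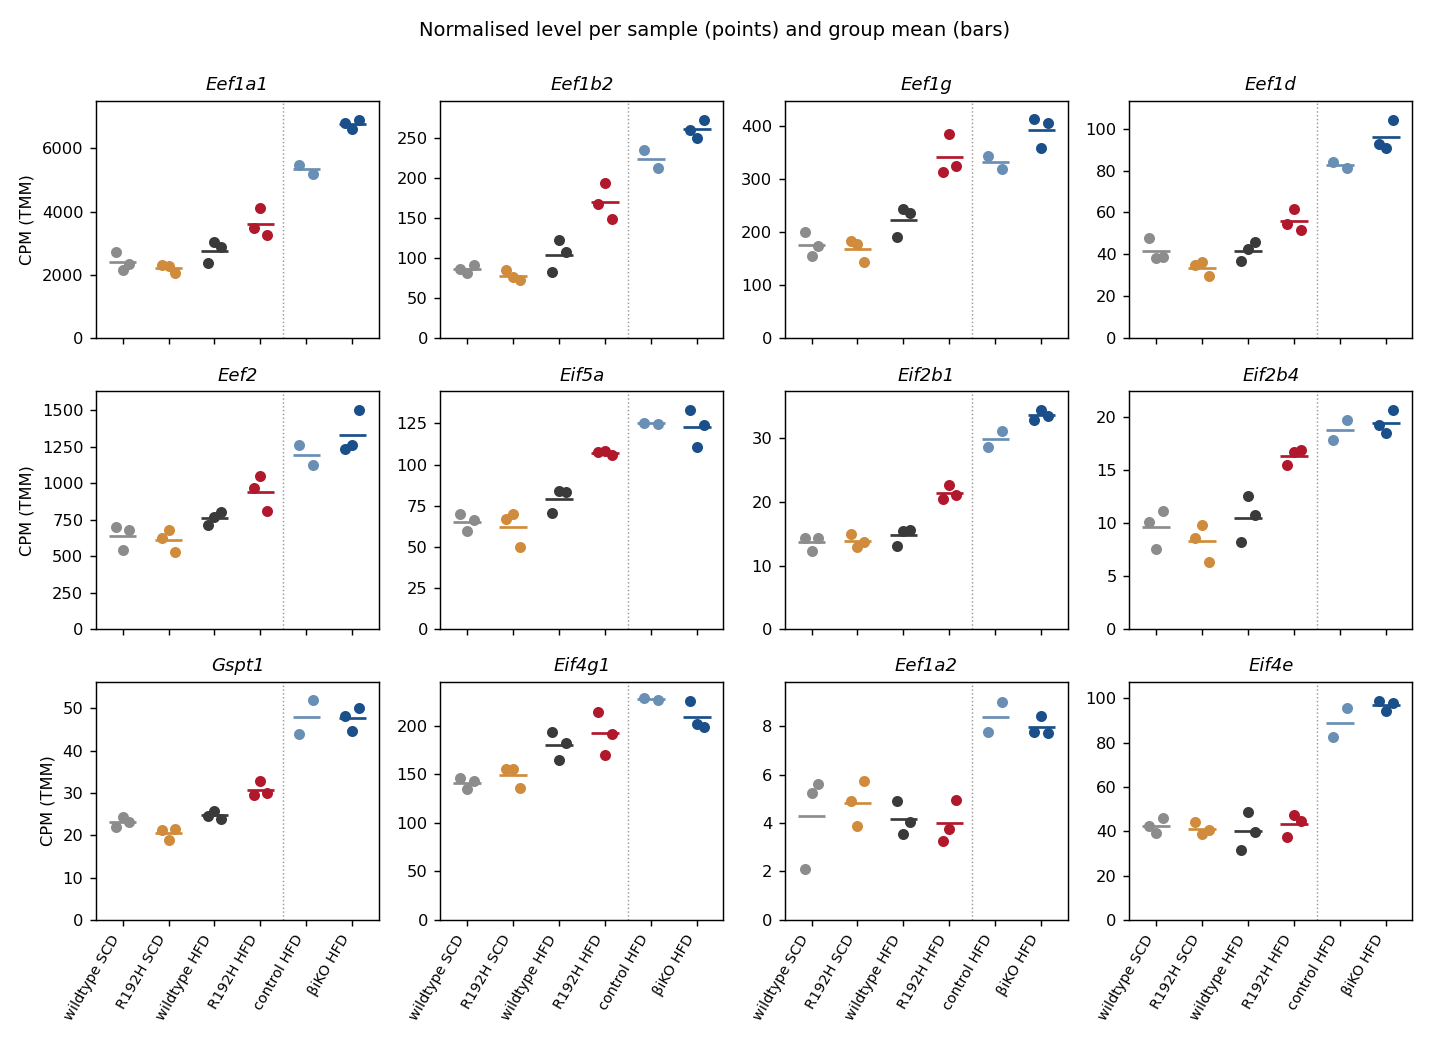
Level in CPM on TMM library sizes (vertical axis, from 0) of 12 members in each sample (points), with the group mean as a bar, for the 6 groups. The dotted line separates the 2 tables, which were normalised separately, so heights across it are not comparable. *Eef1a1*, *Eef1b2*, *Eef1g*, *Eef1d*, *Eef2*, *Eif5a*, *Eif2b1*, *Eif2b4* and *Gspt1* were, on the TMM scale, higher in all 3 *Pax4* R192H samples on HFD than in the other 9 samples of the first table, whereas *Eef1a2* and *Eif4e* overlapped. The share of all genes with this order of samples was not computed.

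Of the 5 subunits of eIF2B, 4 were called higher for diet in *Pax4* R192H mice and 1, *Eif2b3*, was not, whereas on total counts 2, *Eif2b2* and *Eif2b4*, were above 0 and *Eif2b3* was called lower. The shares of all genes were 9.75% called higher on the TMM scale and 44.9% called lower on total counts. *Eif2b1* encodes the regulatory α subunit that senses phosphorylated eIF2. On SCD, *Eif2b1* measured 14.3, 12.3 and 14.3 CPM in wildtype and 14.9, 13.0 and 13.7 CPM in *Pax4* R192H mice, and on HFD 13.1, 15.5 and 15.7 CPM and 20.5, 22.7 and 21.1 CPM. The *Pax4* R192H mice on HFD were above all others, with the other 3 groups close together. On the log2 scale the difference was 0.54 (SE 0.13, adjusted p = 0.0414) for genotype on HFD and 0.63 (SE 0.13, adjusted p = 0.00505) for diet in *Pax4* R192H mice.

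*Eif2b2* and *Eif2b4*, the β and δ subunits of the regulatory part, had larger diet values. Wildtype and *Pax4* R192H mice had 10.1, 7.59 and 11.1 CPM and 8.64, 9.82 and 6.37 CPM of *Eif2b4* on SCD and 8.18, 12.6 and 10.8 CPM and 15.5, 16.7 and 16.9 CPM on HFD. The same 3 samples were highest. For diet in *Pax4* R192H mice the log2 fold change of *Eif2b4* was 0.98 (SE 0.20, adjusted p = 0.00579) and that of *Eif2b2* 0.92 (SE 0.18, adjusted p = 0.00406). The level of *Eif2b2* was 14.9, 10.6 and 12.0 CPM in wildtype and 12.7, 12.8 and 8.82 CPM in *Pax4* R192H mice on SCD, and 15.1, 17.1 and 15.1 CPM in wildtype and 18.8, 24.8 and 21.4 CPM in *Pax4* R192H mice on HFD. For genotype on HFD the values were 0.64 (SE 0.20, adjusted p = 0.116) for *Eif2b4* and 0.46 (SE 0.17, adjusted p = 0.202) for *Eif2b2*.

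*Eif2b5* encodes the catalytic ε subunit. *Eif2b5* stood at 38.4, 28.0 and 32.5 CPM in the wildtype and 33.5, 34.1 and 23.5 CPM in the *Pax4* R192H mice on SCD, and at 32.0, 39.9 and 39.5 and 42.0, 44.8 and 44.3 CPM in the same order on HFD. On HFD the genotypes did not overlap, but the nearest samples were close. Its log2 fold change was 0.52 (SE 0.16, adjusted p = 0.0395) for diet in *Pax4* R192H mice and 0.23 (SE 0.16, adjusted p = 0.522) for genotype on HFD. On leaving out 1 sample the diet value ran from 0.37 to 0.64, and the call was lost in 5 of 6 fits. *Eif2b3*, the γ subunit that pairs with *Eif2b5*, stood at -0.04 for diet and 0.08 for genotype on HFD. The difference between subunits was not tested.

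Early initiation factors gave no call on the TMM scale, whereas on total counts *Eif1*, *Eif1a* and *Eif2s1* were called lower for diet in *Pax4* R192H mice, as were 44.9% of all genes. *Eif2s1* encodes eIF2α, the subunit that stress kinases phosphorylate, and none of the 4 factors eIF1, eIF1A, eIF2α and eIF2β was called in any comparison as tested with edgeR on the TMM scale. In CPM, *Eif2s1* was 39.4, 37.6 and 36.5 in wildtype mice on SCD, 39.9, 33.5 and 29.7 in *Pax4* R192H mice on SCD, 22.9, 38.9 and 34.6 in wildtype mice on HFD and 33.8, 37.9 and 38.5 in *Pax4* R192H mice on HFD. The groups of *Eif2s1* overlapped throughout. Its log2 fold change was 0.10 (SE 0.17, adjusted p = 0.733) for diet in *Pax4* R192H mice and 0.19 (SE 0.17, adjusted p = 0.643) for genotype on HFD. In this role the diet values in *Pax4* R192H mice ran from -0.30 for *Eif1* to 0.34 for *Eif2s2*.

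Among 12 subunits of eIF3, the scaffold of the small-subunit complex, 5 were called higher for diet in *Pax4* R192H mice and all 12 were above 0 on the TMM scale, whereas on total counts *Eif3g* alone was above 0 and *Eif3a*, *Eif3c*, *Eif3e* and *Eif3m* were called lower. Over all genes the shares were 9.75% higher on the TMM scale and 44.9% lower on total counts. On the TMM scale 0 subunits were called for genotype on HFD, where the median was 0.31. At an unadjusted p below 0.05 there 5 were higher, as were 8.91% of all genes. The called ones were *Eif3b*, *Eif3g* and *Eif3i*, which form a mobile module of the complex, with *Eif3d*, which binds the cap of some mRNAs, and *Eif3k*. On SCD, *Eif3g* measured 34.2, 22.1 and 30.4 CPM in wildtype and 29.6, 29.3 and 20.2 CPM in *Pax4* R192H mice, and on HFD 24.1, 38.9 and 34.5 CPM and 44.5, 46.2 and 45.9 CPM. Wildtype and *Pax4* R192H mice had 48.5, 36.0 and 41.5 CPM and 45.4, 41.6 and 44.0 CPM of *Eif3i* on SCD and 42.3, 51.4 and 55.1 CPM and 65.0, 78.1 and 64.7 CPM on HFD. For both genes all *Pax4* R192H mice on HFD exceeded all others. The log2 fold change for diet was 0.78 (SE 0.20, adjusted p = 0.0177) for *Eif3g* and 0.67 (SE 0.14, adjusted p = 0.00639) for *Eif3i*. On leaving out 1 sample the call of *Eif3g* was lost in 3 of 6 fits and that of *Eif3i* in 0. The level of *Eif3b* was 25.6, 24.0 and 36.2 CPM in wildtype and 28.7, 25.8 and 30.2 CPM in *Pax4* R192H mice on SCD, and 39.3, 31.9 and 29.4 CPM in wildtype and 48.8, 43.7 and 42.5 CPM in *Pax4* R192H mice on HFD. The diet value of *Eif3b* was 0.67 (SE 0.16, adjusted p = 0.0129), and its call was lost in 2 of 6 such fits.

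*Eif3a*, the largest subunit, was not called. *Eif3a* stood at 158, 129 and 163 CPM in the wildtype and 139, 144 and 135 CPM in the *Pax4* R192H mice on SCD, and at 122, 160.1 and 142 and 147, 161 and 138 CPM in the same order on HFD. All 4 groups overlapped. For *Eif3a* the values were 0.09 (SE 0.13, adjusted p = 0.655) for diet in *Pax4* R192H mice and 0.07 (SE 0.13, adjusted p = 0.851) for genotype on HFD. The lowest diet value of the complex was 0.06 in *Eif3e*, near that of *Eif3a* and *Eif3c*.

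No eIF4 factor, of 8, was called in any comparison as tested with edgeR on the TMM scale, although without the filter on low counts *Eif4g3* was called lower for genotype on HFD and for diet in *Pax4* R192H mice, and on total counts *Eif4a2*, *Eif4e*, *Eif4g2* and *Eif4g3* were called lower for diet in *Pax4* R192H mice, as were 44.9% of all genes. *Eif4e* encodes the cap-binding protein. In CPM, *Eif4e* was 42.3, 39.3 and 45.9 in wildtype mice on SCD, 44.1, 38.8 and 40.8 in *Pax4* R192H mice on SCD, 31.6, 48.6 and 39.7 in wildtype mice on HFD and 37.4, 47.5 and 44.7 in *Pax4* R192H mice on HFD. The groups overlapped. Its log2 fold change was 0.07 (SE 0.15, adjusted p = 0.794) for diet in *Pax4* R192H mice and 0.11 (SE 0.15, adjusted p = 0.789) for genotype on HFD. *Eif4g1*, the scaffold that joins cap and ribosome, rose with diet in neither genotype by the test but lay higher on HFD in both. On SCD, *Eif4g1* measured 146, 134 and 143 CPM in wildtype and 156, 156 and 136 CPM in *Pax4* R192H mice, and on HFD 193, 165 and 182 CPM and 214, 170.3 and 191.6 CPM. Every sample on HFD was above every sample on SCD. The diet value was 0.36 (SE 0.12, adjusted p = 0.055) in *Pax4* R192H mice and genotype on HFD gave 0.09 (SE 0.12, adjusted p = 0.78).

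The 2 helicases of eIF4A had opposite signs on the TMM scale for genotype on HFD and for diet in *Pax4* R192H mice, while on total counts, which lowers all genes alike, both were below 0 for diet in *Pax4* R192H mice. With the acinar covariate *Eif4a2* was above 0 in both comparisons. On leaving out 1 sample its value for genotype on HFD ran from -0.21 to 0.035. The log2 ratio of counts of *Eif4a1* to *Eif4a2*, which no scaling changes, was -1.65, -1.87 and -1.66 in *Pax4* R192H mice on SCD and -0.87, -1.23 and -1.20 on HFD, against -1.46, -1.79 and -1.61 in wildtype mice on SCD and -1.495, -1.498 and -1.503 on HFD. It was highest in the *Pax4* R192H samples on HFD, without overlap. Wildtype and *Pax4* R192H mice had 210.1, 149 and 169 CPM and 179.7, 153 and 169 CPM of *Eif4a1* on SCD and 148, 202 and 184 CPM and 209, 233 and 211 CPM on HFD. The level of *Eif4a2* was 576, 517 and 517 CPM in wildtype and 563, 558 and 535 CPM in *Pax4* R192H mice on SCD, and 418, 569 and 522 CPM in wildtype and 382, 544 and 485 CPM in *Pax4* R192H mice on HFD. *Eif4a1* was higher in all *Pax4* R192H than in all wildtype mice on HFD, while *Eif4a2* overlapped. For diet in *Pax4* R192H mice the log2 fold change was 0.38 (SE 0.15, adjusted p = 0.0992) for *Eif4a1* and -0.23 (SE 0.16, adjusted p = 0.328) for *Eif4a2*, and for genotype on HFD it was 0.29 (SE 0.15, adjusted p = 0.375) and -0.10 (SE 0.15, adjusted p = 0.828). The difference between the 2 genes was not tested. The lowest eIF4 value was -0.53 in *Eif4g3* and the highest 0.45 in *Eif4b*, the cofactor of the helicase.

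**Figure D4:**
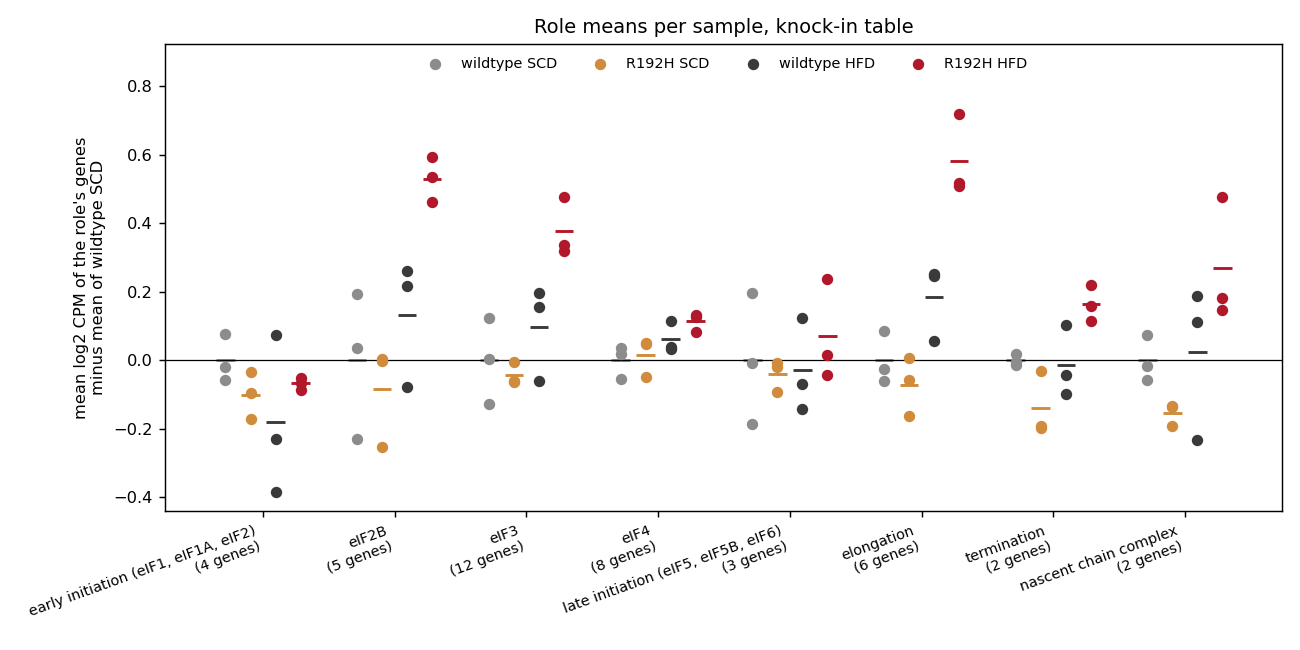
Mean log2 CPM of the genes of each role with more than 1 gene, in each of the 12 samples of the first table (points) with the group mean as a bar, minus the mean of wildtype mice on SCD (vertical axis). On the TMM scale the *Pax4* R192H mice on HFD were above all other mice for eIF2B, eIF3, elongation and termination factors. For termination the nearest samples stood at 5.48 and 5.47 mean log2 CPM. For early initiation they were below 0, as were all *Pax4* R192H samples on SCD and wildtype samples 1 and 3 on HFD. On total counts the differences of the *Pax4* R192H mice on HFD turn below 0 in most members.

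Of the late factors, *Eif6*, which keeps free large subunits apart, was called for diet in *Pax4* R192H mice at 0.73 (SE 0.18, adjusted p = 0.0147), and *Eif5* and *Eif5b* were not, whereas on total counts *Eif6* was not called and *Eif5* and *Eif5b* were called lower. The call of *Eif6* was lost in 2 of 6 fits that left out 1 sample. *Eif6* stood at 22.3, 15.2 and 18.2 CPM in the wildtype and 20.3, 17.8 and 12.6 CPM in the *Pax4* R192H mice on SCD, and at 19.9, 23.1 and 25.5 and 27.7, 28.7 and 27.9 CPM in the same order on HFD. *Eif5a*, the factor that carries hypusine and helps the ribosome through difficult peptide bonds, was called for the same comparison. In CPM, *Eif5a* was 70.1, 59.5 and 66.2 in wildtype mice on SCD, 66.6, 69.7 and 50.2 in *Pax4* R192H mice on SCD, 70.6, 83.9 and 83.1 in wildtype mice on HFD and 108, 108 and 106 in *Pax4* R192H mice on HFD. The 3 *Pax4* R192H samples on HFD differed little from each other and lay above the rest. Log2 fold changes were 0.78 (SE 0.14, adjusted p = 0.00216) for diet in *Pax4* R192H mice and 0.44 (SE 0.13, adjusted p = 0.11) for genotype on HFD.

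*Gspt1* encodes eRF3, the GTPase of termination. On SCD, *Gspt1* measured 21.9, 24.3 and 23.2 CPM in wildtype and 21.2, 18.8 and 21.4 CPM in *Pax4* R192H mice, and on HFD 24.5, 25.7 and 23.9 CPM and 29.4, 32.8 and 30.0 CPM. It had the smallest spread within groups of the 45 members, a pooled SD of 0.081 log2 units. Fold changes on the log2 scale were 0.59 (SE 0.11, adjusted p = 0.00323) for diet in *Pax4* R192H mice and 0.31 (SE 0.11, adjusted p = 0.156) for genotype on HFD, and its partner *Etf1*, eRF1, stood at 0.02 and 0.04 on the TMM scale, whereas on total counts *Gspt1* was at -0.14 for diet and not called and *Etf1* was called lower.

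*Naca*, the α subunit of the complex that meets the nascent chain, was called for diet in *Pax4* R192H mice. Wildtype and *Pax4* R192H mice had 126, 109 and 112 CPM and 102, 95.8 and 112 CPM of *Naca* on SCD and 96.1, 138 and 126 CPM and 143, 169 and 136 CPM on HFD. On HFD the genotypes overlapped. Differences on the log2 scale were 0.53 (SE 0.15, adjusted p = 0.0249) for diet and 0.31 (SE 0.15, adjusted p = 0.319) for genotype on HFD. On leaving out 1 sample the diet call was lost in 3 of 6 fits. *Pabpc1*, the main cytoplasmic poly(A)-binding protein, varied most among samples. The level of *Pabpc1* was 24.5, 66.0 and 41.5 CPM in wildtype and 35.5, 25.2 and 62.8 CPM in *Pax4* R192H mice on SCD, and 86.2, 33.9 and 32.6 CPM in wildtype and 60.5, 33.4 and 45.1 CPM in *Pax4* R192H mice on HFD. Its pooled SD within groups was 0.66 log2 units, and its log2 fold changes were 0.18 (SE 0.43, adjusted p = 0.81) for diet in *Pax4* R192H mice and -0.14 (SE 0.43, adjusted p = 0.924) for genotype on HFD.

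Several values moved together with these differences. The 25 acinar markers were all higher in *Pax4* R192H than in wildtype mice on HFD, with a median log2 fold change of 1.51 and 8 of 25 called, and for diet in *Pax4* R192H mice the median was 1.84 with 23 of 25 called. With the acinar covariate the members' median for diet was 0.40 and 0 of the 18 were called, where 0.381% of all genes were. The part of acinar RNA in the members' differences was not tested beyond this fit.

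Transcript length moved with the differences too, across all genes as well as across members. For diet in *Pax4* R192H mice Spearman's rho between length and log2 fold change was -0.37 over the 45 members and -0.39 over 14129 coding genes, which share libraries and are not independent replicates. For genotype on HFD rho was -0.44 over the members and -0.32 over coding genes, and for *Pax4* βiKO it was -0.55 and -0.32. For diet in *Pax4* R192H mice, members of at most 2013 bases had a median of 0.60, with 13 of 23 called, and longer ones 0.22, with 5 of 22 called. All coding genes in the same length classes had medians of 0.31 and -0.11 in that comparison, with 22.3% and 6.78% called higher. With offsets for length in each library, chosen after the data were seen, 11 members were called higher and 0 lower, where 8.12% and 5.28% of all genes were, 10 of the 11 being among the 18, and the members' median was 0.28 against -0.01. For genotype on HFD the same fit called 2 higher, *Eef1b2* and *Eef1g*, where 2.46% of all genes were. For *Pax4* βiKO it called 0 members and gave a members' median of 0.08, against 0.14 without offsets.

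**Figure D5:**
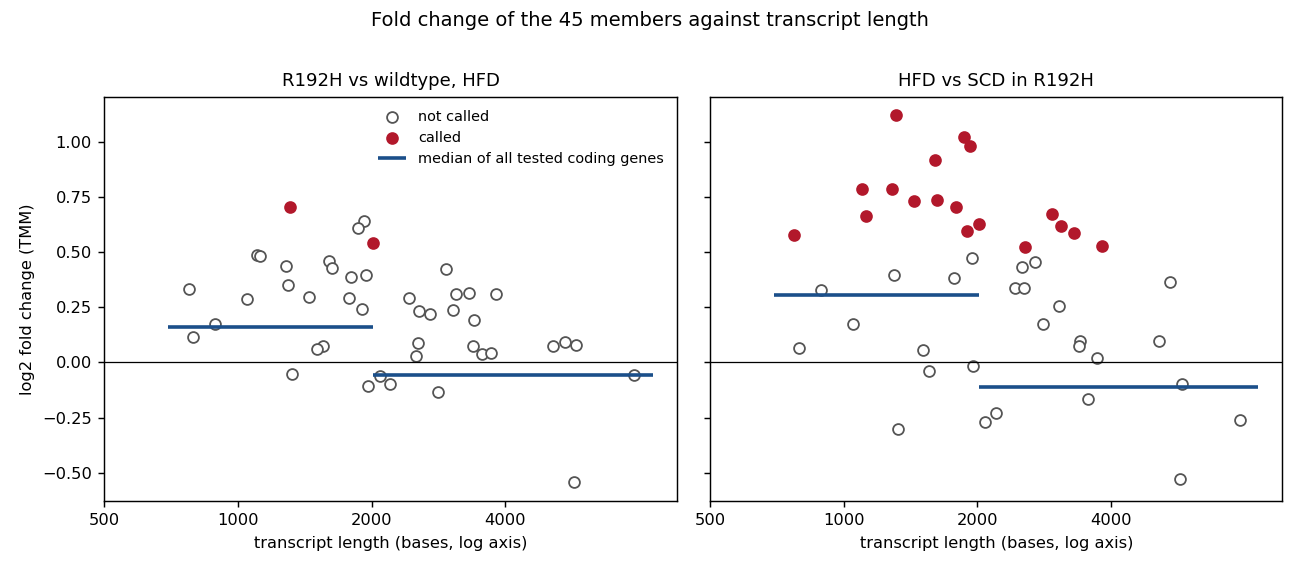
Log2 fold change on the TMM scale (vertical axis) of the 45 members against the median length of their coding transcripts (horizontal log axis, bases), for genotype on HFD (left) and diet in *Pax4* R192H mice (right). Filled red points were called, and blue lines are the medians of all tested coding genes up to and above 2013 bases, 0.16 and -0.06 on the left and 0.31 and -0.11 on the right. The medians of the members were above those lines in both classes, at 0.35 and 0.08 on the left and at 0.60 and 0.22 on the right, and on total counts most members lay below 0 in both panels.

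Related lists gave a frame for these counts. For genotype on HFD 1.46% of all genes were called higher and 0.820% lower. For diet in *Pax4* R192H mice the shares were 9.75% and 5.91%. Of 79 cytosolic ribosomal protein genes, 79 were above 0 and 7 called higher for genotype on HFD, with a median log2 fold change of 0.50, and 73 were called higher for diet in *Pax4* R192H mice, with a median of 0.78, each above the members' median. Of the 20 cytosolic aminoacyl-tRNA synthetases, which charge tRNA, 1 was called higher for genotype on HFD and 4 for diet in *Pax4* R192H mice, with medians of 0.28 and 0.38. The 11 measured mitochondrial translation factors gave 0 calls for genotype on HFD, and 1 higher and 1 lower for diet in *Pax4* R192H mice, near the shares of all genes. Within the members, the 12 listed 5′ TOP genes had a diet median of 0.49 with 6 called, and the other 33 one of 0.34 with 12 called.

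Of 42 other translation factors, 1 was called higher and 1 lower for genotype on HFD, where 1.46% and 0.820% of all genes were, and 5 higher and 2 lower for diet in *Pax4* R192H mice, where 9.75% and 5.91% were, so these counts were near the background. *Rack1*, a scaffold on the small subunit, stood at 229, 290 and 280 CPM in wildtype and 396, 455 and 366 CPM in *Pax4* R192H mice on HFD, a log2 fold change of 0.61 (SE 0.14, adjusted p = 0.0451). *Eif4ebp3*, an inhibitor of eIF4E, had 31.7, 30.6 and 43.2 expected counts in wildtype and 6.80, 0 and 1.15 in *Pax4* R192H mice on HFD. This difference was called lower, with an adjusted p of 0.0479, and with so few counts no fold is given. For diet in *Pax4* R192H mice *Pelo*, a ribosome rescue factor, rose by 1.20 (SE 0.24, adjusted p = 0.0051), *Rack1* by 0.85 (SE 0.14, adjusted p = 0.00195), *Pabpc4* by 0.73 (SE 0.13, adjusted p = 0.00237), *Eif2d* by 0.65 (SE 0.14, adjusted p = 0.00639) and *Dohh*, an enzyme of hypusine synthesis, by 0.62 (SE 0.15, adjusted p = 0.0125) on the log2 scale. *Eif5a2* and *Eif4ebp3* were the 2 called lower.

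In the second table, which was normalised on its own, no member was called between *Pax4* βiKO and control mice. edgeR called 0 of 45 members, where 0.0893% of 20167 genes were called, and DESeq2 also called 0, against 0.646% of 38704 genes tested without the filter. The members' median log2 fold change was 0.14 against 0.01 for all genes, with 32 above 0. At an unadjusted p below 0.05 there were 10 higher and 3 lower, where 6.23% and 6.62% of all genes were. The 10 became 1 on total counts, with the total without the 2 largest genes and with length offsets, and 3 to 7 on leaving out 1 sample, with 3 without control 1. With 2 control samples, 18 members lay without overlap above and 5 below control, against 15.9% and 16.7% of all genes. The 25 acinar markers had the opposite sign here, all 25 below 0 with a median of -0.67 and 0 called, and the 79 ribosomal protein genes were all above 0 with a median of 0.25 and 0 called.

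Of the 6 elongation factors, 4 lay above both controls in all *Pax4* βiKO mice, as did 15.9% of all genes. Control mice had 5487 and 5177 CPM and *Pax4* βiKO mice 6784, 6613 and 6907 CPM of *Eef1a1*. All *Pax4* βiKO mice were above both controls, with a log2 fold change of 0.34 (SE 0.11, adjusted p = 0.282). The level of *Eef1b2* was 235 and 213 CPM in control and 260.3, 249.9 and 273 CPM in *Pax4* βiKO mice. For *Eef1b2* the value was 0.22 (SE 0.088, adjusted p = 0.357), again without overlap. For *Eef1g*, control mice stood at 344 and 318 CPM and *Pax4* βiKO mice at 413, 358 and 405 CPM. *Eef1g* stood at 0.24 (SE 0.10, adjusted p = 0.376) and *Eef1d* at 0.22 (SE 0.089, adjusted p = 0.378).

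*Eef2* and *Eef1a2* overlapped between the genotypes. *Eef2* was at 1264 and 1124 CPM in control and 1235, 1263 and 1505 CPM in *Pax4* βiKO mice. The log2 fold change of *Eef2* was 0.16 (SE 0.13, adjusted p = 0.635). Control mice had 7.77 and 9.02 CPM and *Pax4* βiKO mice 7.77, 8.44 and 7.72 CPM of *Eef1a2*. That of *Eef1a2* was -0.07 (SE 0.15, adjusted p = 0.866). The level of *Eef2k* was 13.4 and 10.9 CPM in control and 13.6, 11.4 and 14.7 CPM in *Pax4* βiKO mice. For *Eef2k*, the kinase, it was 0.12 (SE 0.16, adjusted p = 0.774).

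Initiation factors gave values that missed the test. For *Eif2s1*, control mice stood at 68.8 and 85.3 CPM and *Pax4* βiKO mice at 87.4, 82.5 and 87.4 CPM. *Eif2s1* overlapped between the genotypes, with a log2 fold change of 0.15 (SE 0.10, adjusted p = 0.572). *Eif2b5* was at 44.4 and 45.5 CPM in control and 50.8, 45.4 and 52.7 CPM in *Pax4* βiKO mice. The same held for *Eif2b5*, the catalytic subunit of eIF2B, at 0.14 (SE 0.091, adjusted p = 0.553). Control mice had 28.6 and 31.2 CPM and *Pax4* βiKO mice 33.0, 34.5 and 33.6 CPM of *Eif2b1*. *Eif2b1* lay above both controls in all 3 *Pax4* βiKO samples, at 0.17 (SE 0.089, adjusted p = 0.459).

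*Eif3a* and *Eif5a* overlapped between the genotypes. The level of *Eif3a* was 216 and 233 CPM in control and 226, 221 and 222 CPM in *Pax4* βiKO mice. *Eif3a* had a log2 fold change of -0.01 (SE 0.079, adjusted p = 0.965). For *Eif5a*, control mice stood at 125 and 125 CPM and *Pax4* βiKO mice at 134, 111 and 124 CPM. That of *Eif5a* was -0.03 (SE 0.095, adjusted p = 0.929), whereas *Eif5a* was among the called genes for diet in *Pax4* R192H mice. The 3 members lower at an unadjusted p below 0.05 were *Eif1*, *Eif3b* and *Eif4g3*.

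Among eIF4 factors, *Eif4g3*, a scaffold related to *Eif4g1*, had the largest difference of the 45 members in size, with 52.2 and 47.0 CPM in control and 39.9, 38.2 and 28.1 CPM in *Pax4* βiKO mice, at -0.49 (SE 0.15, adjusted p = 0.282). The *Pax4* βiKO mice all lay below both controls. *Eif4a1* was at 312 and 373 CPM in control and 395, 376 and 388 CPM in *Pax4* βiKO mice. *Eif4a1*, the helicase, lay above both controls, with a log2 fold change of 0.18 (SE 0.10, adjusted p = 0.51). Control mice had 1011 and 938 CPM and *Pax4* βiKO mice 1013, 1055 and 992 CPM of *Eif4a2*. Its relative *Eif4a2* overlapped, at 0.07 (SE 0.099, adjusted p = 0.814). The level of *Eif4e* was 82.4 and 95.6 CPM in control and 98.9, 94.3 and 98.1 CPM in *Pax4* βiKO mice. For the cap-binding *Eif4e*, which also overlapped, the value was 0.13 (SE 0.089, adjusted p = 0.596). For *Eif4g1*, control mice stood at 229 and 227 CPM and *Pax4* βiKO mice at 226, 202 and 198 CPM. The *Pax4* βiKO mice lay just below the controls for *Eif4g1*, at -0.12 (SE 0.088, adjusted p = 0.595).

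Poly(A) binding and the nascent chain complex differed in sign. *Pabpc1* was at 133 and 122 CPM in control and 117, 106 and 72.1 CPM in *Pax4* βiKO mice. It was below both controls in all *Pax4* βiKO mice, at -0.37 (SE 0.18, adjusted p = 0.439). Control mice had 281 and 275 CPM and *Pax4* βiKO mice 317, 324 and 324 CPM of *Naca*. *Naca* was above both controls, at 0.21 (SE 0.079, adjusted p = 0.337). The level of *Gspt1* was 44.0 and 51.9 CPM in control and 48.2, 44.7 and 50.1 CPM in *Pax4* βiKO mice. The termination factor *Gspt1* overlapped, at -0.01 (SE 0.10, adjusted p = 0.978).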

How the data were processed

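Bulk RNA-seq of 17 islet samples was analysed in 2 tables of gene-level values. The deposited values are expected counts, also called estimated counts, which the authors made from paired reads of total RNA libraries, with STAR v2.7.1 as aligner against mm10, RSEM v1.3.3 for abundances and a sum over the transcripts of each gene. They carry no scaling for depth. The annotation release is not given in the sources used here, and transcript length offsets of the summing step were not used. Groups were taken from the sample names.

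In R v4.3.3, the rounded values of each table were filtered by filterByExpr with a minimum count of 10, scaled by TMM and fitted with 1 coefficient per group, and the test was the quasi-likelihood F-test of edgeR v4.0.16. A call needed a log2 fold change beyond 0.5 in size and an adjusted p (Benjamini-Hochberg, all genes tested) under 0.05. SE is the absolute log2 fold change divided by the square root of F. For log2 CPM the prior count was 2. The fits were tested on simulated data. Alternatives were RLE, total counts, leaving out the 2 largest genes, other filters, DESeq2 v1.42.0, a replicate block, an acinar covariate, only the groups compared and leaving out each sample. Total counts without the 2 largest genes, length offsets, and leaving out 3 samples that deviated together were added after seeing the data.

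The members and all gene lists were chosen with earlier results of these data known. Values in every sample were given for 15 members fixed by role and for members called, up to the 12 with the largest fold change, and for other translation factors up to 6 called genes. Lengths and loci came from GENCODE M21 and promoters from RefSeq, both on GRCm38. Lists were counted and their medians given, with no set test. Genes of one library are not replicates, and p-values rest on 2 or 3 samples per group. Lists of immune, duct, endothelial and stromal markers are in the closing section.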

Additional observations from a re-analysis of the deposited data

Results flagged for a closer look

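*Eef1d* and *Gspt1* stood out because their genotypes were separated in opposite directions on the 2 diets. For *Eef1d* all *Pax4* R192H mice lay below all wildtype mice on SCD, with a log2 fold change of -0.31, and above them on HFD, with 0.43. For *Gspt1* the values were -0.18 and 0.31 on the TMM scale, where total counts gave -0.077 on HFD. The difference itself was tested by the interaction of genotype and diet. edgeR gave 0.73 (adjusted p = 0.156) for *Eef1d* and 0.49 (adjusted p = 0.225) for *Gspt1*, so neither was called, while DESeq2 called *Eef1d* and not *Gspt1*. These comparisons were not adjusted for having been picked by their pattern.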

How the results depend on the processing

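Members called for genotype on HFD numbered 2, as with RLE, without the 2 largest genes, at any fold and with length offsets. They numbered 3 with DESeq2 and with at least 10 counts in every sample, 4 with no filter (3 higher and 1 lower), and 0 with total counts, with an acinar covariate, with a replicate block, with only the groups compared, and with the total without the 2 largest genes. Leaving out 1 of the 6 HFD samples gave 0 to 1 members, namely 1 (*Eef1b2*) without wildtype sample 2 and 0 without any other. In these fits 0.301% to 1.42% of all genes were called higher, the 1.42% without wildtype sample 2. Interaction calls among the members numbered 0, 1 with no filter and 2 with DESeq2. No filter called 1.16% of all genes higher and 0.612% lower, and DESeq2 called 0.782%. For diet in *Pax4* R192H mice the 18 calls were all lost with total counts, which called 16 other members lower. For that comparison 5 members were called (2 higher, both among the 18, and 3 lower) with the total without the 2 largest genes, where 3.21% of all genes were called higher and 26.2% lower, 0 with the acinar covariate, 11 with length offsets, and 11 to 16 on leaving out 1 sample, the 11 without HFD sample 2 of *Pax4* R192H. The acinar covariate called 0.381% of all genes. Length offsets called 8.12% higher, and leaving out 1 sample 5.74% to 7.54%. SCD, diet in wildtype mice and *Pax4* βiKO gave 0 members under each alternative. Over all genes, the alternatives that kept every sample gave 0 to 261 calls for genotype on SCD (0 as reported), 0 to 1279 for genotype on HFD (437), 0 to 708 for the interaction (25), 1 to 924 for diet in wildtype mice (71), 73 to 8939 for diet in *Pax4* R192H mice (2996) and 13 to 697 for *Pax4* βiKO (18). The causes were not tested.

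Total counts moved the median of all genes to 0.07 for genotype on SCD, -0.40 for genotype on HFD, -0.47 for the interaction, -0.26 for diet in wildtype mice and -0.79 for diet in *Pax4* R192H mice, and the log2 fold changes that turned sign were, for genotype on HFD, -0.086 for *Eef2*, -0.16 for *Eef2k*, -0.085 for *Eif4a1*, -0.25 for *Eif4e*, -0.31 for *Eif4g1*, -0.31 for *Eif3a*, -0.16 for *Eif2s1*, -0.14 for *Eif2b5*, -0.065 for *Naca* and -0.077 for *Gspt1*, and for diet in *Pax4* R192H mice, -0.044 for *Eef1a1*, -0.13 for *Eef2*, -0.49 for *Eef2k*, -0.35 for *Eif4a1*, -0.66 for *Eif4e*, -0.38 for *Eif4g1*, -0.65 for *Eif3a*, -0.64 for *Eif2s1*, -0.23 for *Eif2b5*, -0.52 for *Pabpc1*, -0.20 for *Naca*, -0.14 for *Gspt1*, -0.10 for *Eif2b1*, -0.012 for *Eef1d*, -0.023 for *Eif6*, -0.059 for *Eif3b* and -0.071 for *Eif3i*. With the total without the 2 largest genes they were, for genotype on HFD, -0.055 for *Eef2k*, -0.15 for *Eif4e*, -0.20 for *Eif4g1*, -0.21 for *Eif3a*, -0.070 for *Eif2s1* and -0.040 for *Eif2b5*, for diet in *Pax4* R192H mice, -0.20 for *Eef2k*, -0.069 for *Eif4a1*, -0.38 for *Eif4e*, -0.089 for *Eif4g1*, -0.36 for *Eif3a*, -0.35 for *Eif2s1* and -0.27 for *Pabpc1*, and for *Pax4* βiKO, 0.0098 for *Eif3a* and 0.0084 for *Gspt1*. An acinar covariate gave 0.14 for *Eif4a2*, -0.00073 for *Eif4g1* and -0.038 for *Eif3a* for genotype on HFD, 0.056 for *Eif4a2*, -0.039 for *Eif3a* and -0.39 for *Pabpc1* for diet in *Pax4* R192H mice and 0.0057 for *Eif5a* for *Pax4* βiKO. Length offsets gave -0.12 for *Eif4e* for genotype on HFD, -0.40 for *Eif4e* for diet in *Pax4* R192H mice and -0.022 for *Eif4e* and 0.085 for *Eif3a* for *Pax4* βiKO. Without the 3 samples that deviated together, 1 member was called for genotype on HFD, and there 0.073 for *Eef1a2*, -0.031 for *Eif4e*, -0.023 for *Eif3a*, -0.00017 for *Eif2s1* and 0.48 for *Pabpc1* turned sign. Signs also turned on leaving out 1 sample, with ranges of -0.25 to 0.073 for *Eef1a2*, -0.031 to 0.28 for *Eif4e*, -0.023 to 0.17 for *Eif3a*, -0.00028 to 0.35 for *Eif2s1*, -0.38 to 0.48 for *Pabpc1* and -0.21 to 0.035 for *Eif4a2* for genotype on HFD, -0.057 to 0.61 for *Pabpc1* and -0.0045 to 0.17 for *Eif4e* for diet in *Pax4* R192H mice and -0.18 to 0.039 for *Eef1a2*, -0.019 to 0.28 for *Eef2k*, -0.065 to 0.045 for *Eif3a*, -0.12 to 0.11 for *Gspt1* and -0.092 to 0.038 for *Eif5a* for *Pax4* βiKO. Of the other values named, 986 kept direction and side of the threshold, 88 lost and 9 gained the call.

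Samples share replicate numbers but no stated litter or day. Same-numbered samples deviated together (r above 0.1 over genes) in 5 of 18 pairs of the first table, where 10 of 36 pairs with different numbers did, and in 0 of 2 of the second, so the numbers were not read as pairing. With a replicate block, 0 members were called for genotype on HFD and 14 for diet in *Pax4* R192H mice. Where the leaving-out of a control left 1 sample in a group, it was assumed to vary like the others. The number of samples, 2 or 3 per group, limits the precision of each value.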

Other observations

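Of the 45 members, *Pabpc1*, *Eif5b*, *Eif4g3*, *Eef1a2* and *Eif4g2* varied most between samples of one group in the first table, with pooled SDs of 0.66, 0.54, 0.53, 0.46 and 0.35 log2 units, where the median member had 0.19. For *Pabpc1*, *Eif5b*, *Eif4g3* and *Eif4g2* the highest sample was the same in each group, sample 2 of wildtype on SCD, sample 3 of *Pax4* R192H on SCD and sample 1 of both groups on HFD, which also held for *Eif1*. Of these 4 samples, 3 are those that deviated together over all genes. In the second table the same 4 genes had the largest spread of the 45 members, and sample 3 of *Pax4* βiKO was the lowest for each. These genes were chosen after their values were seen.

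Of the other marker lists, the immune markers had mostly 1 sign in comparisons that use wildtype mice on SCD. All 9 tested were below 0 for genotype on SCD, 8 were below 0 for diet in wildtype mice with 2 called lower, and all 9 were above 0 in the interaction, with medians of -0.61, -0.85 and 0.66. For genotype on HFD, 0 of 9 tested immune, 0 of 9 endothelial and stromal and 0 of 6 duct markers were called, with median log2 fold changes of 0.08, 0.19 and 0.46. For diet in *Pax4* R192H mice the calls were 0, 1 higher and 1 higher, with medians of 0.03, -0.15 and -0.25. Of 16 islet endocrine markers, 1 was called lower for genotype on HFD, and 5 higher and 1 lower for diet in *Pax4* R192H mice.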
